A study of Mus musculus with 4 samples.

Results

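Late monocyte progenitors are described here, cells of the mouse bone marrow that already carry monocyte genes and also hold RNA of Lgals3, Tgfbi and S100a4. Among 26943 cells, 1217 met the rule, which was selected on measured values of these same cells. A cell needed at least 5 UMIs (unique molecular identifiers, each standing for 1 captured RNA molecule) of F13a1, Ms4a6c, Csf1r, Klf4 and Ly86 together, and more of these than of the granulocyte genes Gstm1, Fcnb, Cebpe, Gfi1 and Trem3. It also needed a score of at least 5, the score being the UMIs of Lgals3, Tgfbi and S100a4 per 10000 gene UMIs. Cells with more than 2 UMIs of Siglech, or with 50 or more UMIs of Camp, Ngp, S100a8, S100a9 and Ltf per 10000, were left out. The same gate with a score under 5 held 4871 cells, called early monocyte progenitors below.

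The cells came from WT mice of unstated age and sex that were all injected with E0771, a mouse breast cancer line, 3 days before surgery, which was either sham or a femoral artery ligation, closing the main artery of the hind limb. Marrow was taken 9 days after surgery, sorted for cells without lineage markers that carried cKit, with or without Sca1, and captured by PIPseq, a droplet method that uses templated particles. Both groups therefore share the tumour cells. Each of 2 libraries, called batch 1 and batch 2, held 2 sham and 2 surgery replicates marked by hashtags, and no label tells if such a replicate is a single animal or several pooled. The p-values therefore reflect only how far these replicates vary.

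The groups rest on the names of 4 hashtag oligos, short DNA barcodes attached to the cells of each replicate before pooling and reused in both libraries. They are shown because each comparison of surgery with sham depends on them.
Sham replicate 1: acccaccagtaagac
Sham replicate 2: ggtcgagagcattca
Surgery replicate 1: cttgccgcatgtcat
Surgery replicate 2: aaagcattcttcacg
Any 2 of them differ at 11 or more of 15 positions. The treatment label of each library names a single group, against these hashtag names and the design text, and was not used. In batch 2 the count matrix lists the surgery hashtags first, and names rather than order were followed.

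Monocytes arise in the marrow from progenitors that turn on Irf8 and Klf4, lose the stem cell receptor Kit and, before they leave for the blood, gain the chemokine receptor Ccr2 and the lysosomal enzymes of a phagocyte. Lgals3 encodes galectin-3, a secreted lectin that binds galactose-bearing sugars. Tgfbi encodes a matrix protein induced by TGF-beta, and S100a4 a small calcium-binding protein linked to cell motility. Trem2 is a lipid-sensing receptor best known from macrophages and microglia, and Lyz2 is the lysozyme of myeloid cells.

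The replicates held between 62 and 259 late cells, with 618349 to 2816051 gene UMIs in each sum. In batch 1 the sham replicates had 73 and 259 late cells and the surgery replicates 118 and 186. In batch 2 they had 168 and 168, and 62 and 183. The median late cell had 11246 UMIs against 14281 in early cells, and replicate medians ran from 7916 to 14706, higher in batch 2 than in batch 1 for all replicates. No late cell's barcode was kept in both libraries, against 4 barcodes among all cells.

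The summed late cells carried the monocyte markers, but some members went against the monocyte label. Of the 6 markers named with the cells, Lyz2, Klf4 and Trem2 had means of 1478 ± 156, 261.9 ± 30.9 and 58.8 ± 9.40 CPM (UMIs per 1e6 UMIs of the summed cells, SD, n = 8), although Klf4 is also in the rule. A UMI of Lyz2 was found in 87.5% of late cells, of Klf4 in 81.8% and of Trem2 in only 40.8%. In early cells these shares were 74.0%, 38.5% and 14.1%. Kit, whose protein the sort required, had 16.6 ± 3.90 CPM, against 80.5 ± 4.34 in early cells and 128.0 in the granulocyte gate (3386 cells with at least 5 UMIs of the granulocyte genes, more of them than of the monocyte genes, and the same limits on Siglech and granule genes). Against the label, 59 of the 1217 cells (4.85%) had at least 20 UMIs of the class II genes Cd74, H2-Aa, H2-Ab1 and H2-Eb1 per 10000, a set chosen after its values were seen. These cells are described after the score, and the late-to-early counts, the surgery calls and the shares are given with and without them.

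Lyz2, the marker that the rule did not use and that was most abundant, had 1266 and 1304 CPM in the sham replicates of batch 1 and 1556 and 1538 in those of batch 2. The surgery replicates had 1438 and 1745 CPM in batch 1 and 1569 and 1407 in batch 2. The groups overlapped, and all 8 values lay above the early cells' highest, 401.1 CPM. Trem2 had 63.1, 68.2, 55.5 and 47.3 CPM in the sham replicates and 59.7, 74.5, 52.0 and 50.02 in the surgery replicates, batch 1 first. Its 4 highest values all came from batch 1. In early cells Trem2 ran from 11.5 to 16.1 CPM and in the granulocyte gate it averaged 0.239 CPM.

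Lgals3, Tgfbi and S100a4 chose the cells, so their levels are a description. Lgals3 ran from 421.0 to 449.5 CPM over the 8 replicates, against 31.6 to 42.8 in early cells. Tgfbi ran from 130.1 to 161.1 CPM, against 20.5 to 28.6, and S100a4 from 342.8 to 448.4 CPM, against 21.9 to 28.7. Of late cells, 94.1% had a UMI of Lgals3, 87.3% of S100a4 and 68.0% of Tgfbi. Each cell was then thinned to 2000 UMIs, which left out 31 late and 110 early cells. The shares became 57.4%, 51.8% and 24.1% in late cells and 5.88%, 5.48% and 4.87% in early cells, whose score the rule kept under 5. Cells of an erythroid gate, which should lack these genes, had 0.260%, 0.216% and 0.0433%. That gate required at least 5 UMIs of Klf1, Car1, Gata1 and Rhag together and under 5 of the monocyte genes. It thus left out cells rich in monocyte genes by rule. The erythroid cells had a median of 13316 UMIs, against 11246.

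**Figure D1:**
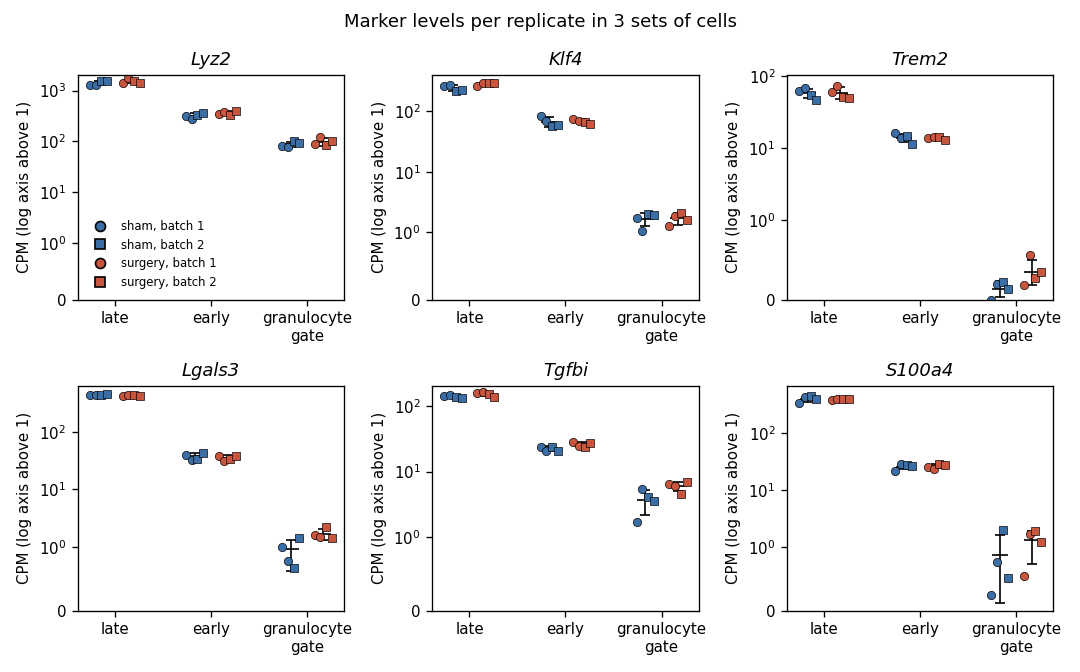
Levels of the 6 markers (CPM, log axis above 1) in late cells, early cells and the granulocyte gate, 1 point per replicate, circles for batch 1 and squares for batch 2, with mean and SD of 4 replicates per group. Lyz2 lies between 1266 and 1745 CPM in late cells, above 401.1 CPM, the highest early replicate, while sham and surgery overlap within late cells.

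The promoters of 4 of these genes are printed because their RNAs marked the cells together, 250 bases before to 50 after a RefSeq start on GRCm38.p6, 5′ to 3′ on the gene's strand. The windows are Lgals3 at chr14:47373610-47373909 (plus strand), Tgfbi at chr13:56609336-56609635 (plus strand), S100a4 at chr3:90603520-90603819 (plus strand) and Trem2 at chr17:48346151-48346450 (plus strand). Capitals mark matches on either strand to GAGGAA (PU.1-type), TTGCNNAA (C/EBP-type), TGANTCA (AP-1-type) or GGGCGG (KLF/SP-type).
Lgals3: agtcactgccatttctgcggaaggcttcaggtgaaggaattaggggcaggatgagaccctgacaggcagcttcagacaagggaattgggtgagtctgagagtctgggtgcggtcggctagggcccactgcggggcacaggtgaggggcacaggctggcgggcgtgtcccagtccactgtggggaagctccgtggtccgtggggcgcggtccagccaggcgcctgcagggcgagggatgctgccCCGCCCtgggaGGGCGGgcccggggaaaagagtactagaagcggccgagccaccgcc
Tgfbi: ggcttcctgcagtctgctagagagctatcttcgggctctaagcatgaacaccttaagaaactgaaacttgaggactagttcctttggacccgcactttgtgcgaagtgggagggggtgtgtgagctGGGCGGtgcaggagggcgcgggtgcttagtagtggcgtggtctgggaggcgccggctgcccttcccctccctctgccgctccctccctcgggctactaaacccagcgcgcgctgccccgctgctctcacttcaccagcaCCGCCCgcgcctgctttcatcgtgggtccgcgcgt
S100a4: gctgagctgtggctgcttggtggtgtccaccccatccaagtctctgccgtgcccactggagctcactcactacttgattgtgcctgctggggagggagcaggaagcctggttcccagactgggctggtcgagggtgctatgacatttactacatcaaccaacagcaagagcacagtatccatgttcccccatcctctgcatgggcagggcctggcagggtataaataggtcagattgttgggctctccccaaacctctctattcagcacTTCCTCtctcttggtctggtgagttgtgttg
Trem2: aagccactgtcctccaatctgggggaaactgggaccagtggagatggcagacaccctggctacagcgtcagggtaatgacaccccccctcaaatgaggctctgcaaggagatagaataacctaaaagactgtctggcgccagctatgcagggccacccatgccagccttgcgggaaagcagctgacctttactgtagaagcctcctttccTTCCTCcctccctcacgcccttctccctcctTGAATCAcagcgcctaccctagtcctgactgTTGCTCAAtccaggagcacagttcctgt
Lgals3 and Tgfbi each held 2 matches to the KLF/SP-type motif, S100a4 1 to the PU.1-type motif, and Trem2 1 match each to the PU.1-type, AP-1-type and C/EBP-type motifs. The promoter of Lyz2 in the same table held none of the 4. Among all 32851 promoters of this length, 28.3% held the PU.1-type, 10.8% the C/EBP-type, 7.81% the AP-1-type and 35.7% the KLF/SP-type motif. Counted per gene, with a match in any of its promoters, the shares were 31.3%, 12.2%, 8.97% and 38.2%. The gene counts that follow are read beside these. Of the 12 genes with the highest late-to-early ratio below, 10 had a promoter in the table, of which 4, 2, 1 and 5 held the motifs in that order; of the 12 lowest, 10 had one, of which 5, 2, 1 and 5 held them. A match is a string of letters and not a measured site.

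Compared with early cells, the late cells had higher levels of most galectin, annexin and S100 genes and of Lyz2 and Trem2, and lower levels of most progenitor and azurophil granule genes. The rule separates these cells by score, so the values are a description without a test, given as log2 ratios of CPM with 5 CPM added, mean ± SD over 8 replicates. The highest ratios among genes outside the rule were those of S100a6, a calcium-binding relative of S100a4 (2.94 ± 0.18, 526.3 against 64.7 CPM), and Ahnak, a giant scaffold protein of the cell cortex (2.46 ± 0.12, 161.9 against 25.4 CPM). Fn1, fibronectin, stood at 2.36 ± 0.26, Crip1, a LIM domain protein, at 2.29 ± 0.16, and Pid1 at 2.14 ± 0.26. Lyz2 was at 2.09 ± 0.15.

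Naaa, a lysosomal amidase, was at 2.06 ± 0.37, Itgb7, the beta 7 integrin chain, at 2.05 ± 0.32, and Ifi30, a lysosomal thiol reductase, at 1.98 ± 0.19. Trem2 was at 1.74 ± 0.18, Aif1, an actin-bundling protein of macrophages, at 1.73 ± 0.29, and Lsp1, a leukocyte actin-binding protein, at 1.72 ± 0.29. All 12 were higher in late cells in 8 of 8 replicates, as the naming rule required.

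Kit, among the 12 genes with the lowest ratios, was at -2.001 ± 0.30, Cd34, a sialomucin of early progenitors, at -1.59 ± 0.12 (46.4 against 148.8 CPM), and the transcription factor genes Sox4 and Erg at -2.50 ± 0.21 and -1.52 ± 0.21. Angpt1, which encodes angiopoietin 1, was at -2.61 ± 0.43. Aff3, Nedd4 and 2610307P16Rik were also among them, between -2.64 and -1.79, as was Cd63, a tetraspanin of granules, at -1.61 ± 0.24. Prss34 and Mcpt8, proteases of basophils, were lowest at -3.24 ± 0.62 and -3.08 ± 0.62. The summed basophil and mast cell markers (9 genes) lay between 211.0 and 760.6 CPM in early replicates and between 28.3 and 53.3 CPM in late ones, so the early gate held more basophil RNA. Its part in the low ratios was not tested.

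**Figure D2:**
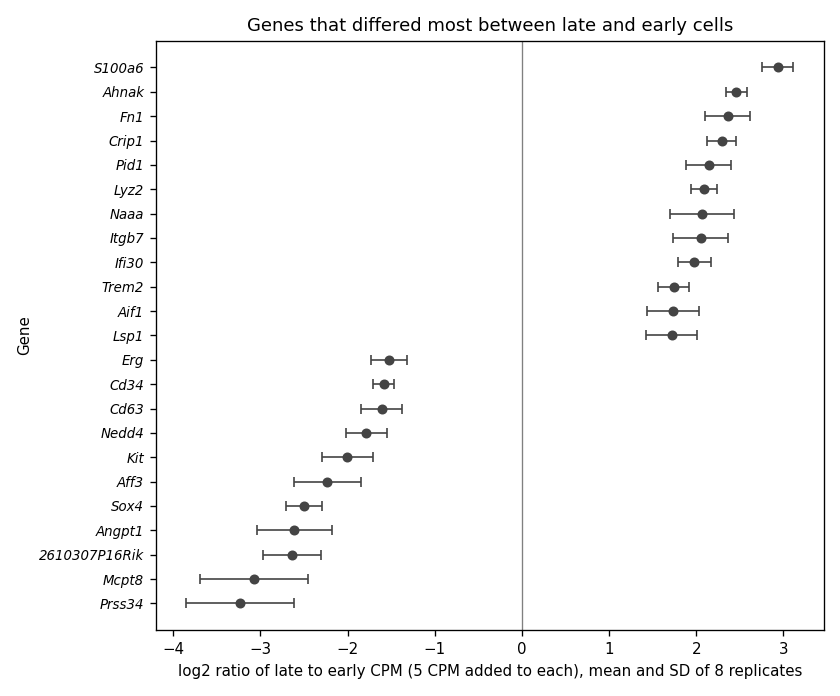
Log2 ratio of late to early CPM (x axis, 5 CPM added) for the 12 genes with the highest ratios and 11 of the 12 with the lowest (y axis), mean and SD of 8 replicates, no test. S100a6 is highest at 2.94 and Prss34 lowest at -3.24.

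Among 3730 genes outside the rule with at least 50 CPM in either class, 982 were higher in late cells in 8 of 8 replicates and 847 lower, of which 60 had a log2 ratio of at least 1 and 27 of -1 or less. Gene lists are read beside all 10123 genes outside the rule with at least 5 CPM in either class, of which 1679 were higher and 1630 lower in 8 of 8, with a median log2 ratio of -0.01. Of 18 galectin, annexin and S100 genes, 15 were higher in 8 of 8 and none lower, with a median of 0.87. Vim, the intermediate filament vimentin, had 950.4 ± 38.4 CPM against 441.5 ± 24.5, and S100a10, partner of annexin A2, 840.4 ± 70.2 against 314.7 ± 18.5. Of 17 progenitor genes, 15 were lower and none higher, with a median of -1.35. Cdk6, a G1 cell cycle kinase, and Myb, a progenitor transcription factor, were at -1.06 ± 0.14 and -1.11 ± 0.17.

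Among receptors and their signalling partners, none of the TREM and Fc lists was lower in 8 of 8 replicates. In the list of TREM and DAP12 signalling, 11 of 14 genes were higher in 8 of 8 and none lower, with a median of 0.58. Tyrobp, the adaptor DAP12 through which Trem2 signals, had 1036 ± 56.2 CPM against 569.7 ± 24.3. In the list of Fc, scavenger and pattern receptors 10 of 14 were higher and none lower (median 0.64), and Fcer1g, the common Fc receptor chain, had 832.3 ± 82.1 against 450.3 ± 34.1 CPM. Among chemokine genes and receptors 8 of 18 were higher and 2 lower (median 0.37). Ccr2, the receptor by which monocytes leave the marrow, had 331.4 ± 38.0 against 152.4 ± 14.7 CPM, and Cxcr4, the receptor that holds cells in the marrow, 248.0 ± 25.2 against 128.2 ± 16.5.

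Of 17 genes in the list of CSF1, CSF2 and FLT3 receptors 10 were higher and 3 lower (median 0.49), with Csf2ra, the GM-CSF receptor alpha chain, at 135.0 ± 18.5 against 62.4 ± 5.90 CPM. Of 28 lysosome genes 17 were higher and 1 lower (median 0.35), with Psap, the precursor of the saposins, at 1276 ± 157 against 473.9 ± 56.8 CPM. Of 18 monocyte transcription factor genes 11 were higher and 2 lower (median 0.37), with Irf8 at 899.2 ± 82.8 against 632.8 ± 44.2 CPM. Of 17 TGF-beta pathway genes 4 were higher and 5 lower (median 0.23).

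Most azurophil granule genes were lower. Of 14 azurophil granule genes 12 were lower and 2 higher, with a median of -0.58. Mpo, myeloperoxidase, had 2328 ± 216 CPM against 4280 ± 223, and Elane, neutrophil elastase, 3749 ± 316 against 5196 ± 405. Of 19 genes of the unfolded protein response 8 were lower and 1 higher (median -0.12), with Calr, a chaperone of the endoplasmic reticulum, at 546.7 ± 44.1 against 991.1 ± 67.2 CPM. Of 17 immediate early genes 13 were higher and 1 lower (median 0.57), with Fos at 502.2 ± 178 against 245.6 ± 111 CPM.

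Genes of G2 and M phase were on the higher side. Of 28 G2 and M phase genes 12 were higher in 8 of 8 and none lower, with a median of 0.36, and Mki67, a proliferation antigen, had 278.6 ± 30.6 CPM against 161.8 ± 13.1. After thinning to 2000 UMIs, the share of cells in which 3 or more of these genes were detected was higher in late than in early cells in 8 of 8 replicates, by 10.2 ± 3.97 points, with a range of 4.36 to 15.7. The S phase list had 6 of 26 genes higher and 3 lower (median 0.01), and the share of cells with at least 3 S phase genes was lower in late cells in 8 of 8 replicates, by 3.73 ± 2.47 points on average.

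Levels also differed along the score, again as a description without a test. The 1217 cells spread over scores of 5 to 10 (724 cells), 10 to 20 (417 cells), 20 to 40 (68 cells) and 40 or more (8 cells), and median depth fell from 12275.5 over 10104 and 8501.5 to 3981 UMIs. Just outside the threshold, 250 early cells had a score of 4 to 5, and just inside it 194 late cells had a score of 5 to 6. Pooled, these had 1031 and 1054 CPM of Lyz2, 47.1 and 41.2 of Trem2, 31.1 and 26.8 of Fn1, 268.2 and 325.5 of S100a6, and 26.7 and 18.8 of Kit.

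Between the bins of 5 to 10 and 10 to 20, of 3678 genes outside the rule with at least 50 CPM in either bin, 155 were higher in the upper bin in 8 of 8 replicates and 104 lower. The highest ratios were those of Fn1 (26.7 ± 6.96 to 66.7 ± 22.7 CPM), Pid1 (37.3 ± 8.93 to 82.9 ± 19.2 CPM) and Rnase6, a secreted ribonuclease (31.2 ± 16.2 to 63.6 ± 14.7 CPM). Crip1, S100a6, Gm6169, Plp2, Ahnak, Itgb7, Ube2c and Lsp1 followed, with log2 ratios from 0.81 to 0.65. Ube2c encodes a ubiquitin-conjugating enzyme of mitosis.

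The lowest ratios were those of Myc, the growth transcription factor (46.5 ± 5.78 to 28.1 ± 10.6 CPM), Mettl1, a tRNA methyltransferase, and Mpo (2708 ± 227 to 1708 ± 230 CPM). Mt1, Idh3a, Exosc1, Cacybp, Hacd1, Cdca7, Nkg7, Ms4a3 and Myb completed the 12, with log2 ratios from -0.65 to -0.44. Trem2 had 57.9 ± 11.1 and 60.8 ± 11.001 CPM in the 2 bins and was higher in the upper bin in 4 of 8 replicates. Ly6c2, the surface marker of classical monocytes, stood at 2836 ± 312 and 2795 ± 338 CPM. Ccr2 was higher in the upper bin in 8 of 8 replicates (296.0 ± 30.6 to 383.0 ± 57.7 CPM). The bins include the class II cells. Cd74 had 122.7 ± 232.0 and 155.2 ± 133.8 CPM in the 2 bins, higher in the upper bin in 6 of 8 replicates, and 336.7 CPM in the pooled bin of 20 to 40. The part of these cells in the bin ratios was not tested.

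**Figure D3:**
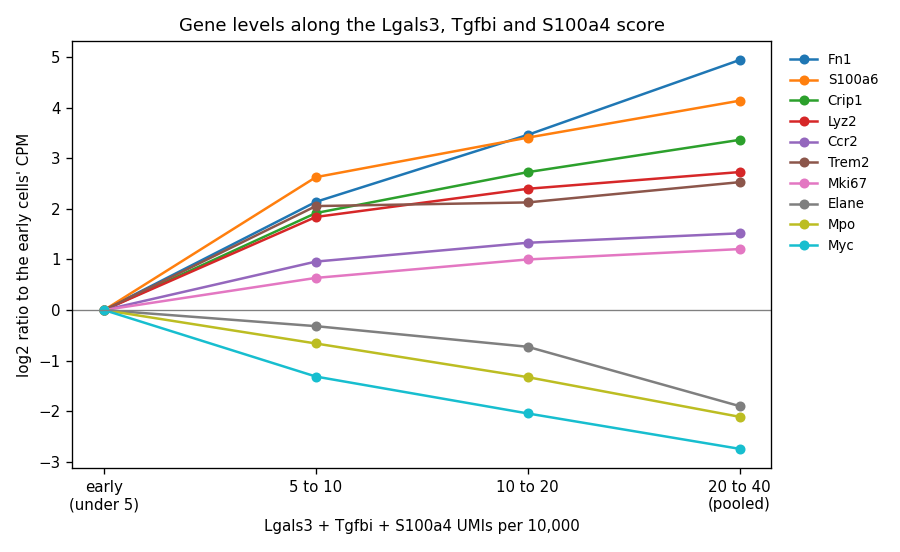
Log2 ratio to early cells (y axis) of 10 genes in early cells and in 3 score bins (x axis), from mean CPM of 8 replicates, or from pooled cells in the bin of 20 to 40, no error bars. Fn1 has 26.7 and 66.7 CPM in the first 2 late bins and Trem2 57.9 and 60.8 CPM.

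The 59 class II cells stood apart from the other late cells in dendritic and monocyte genes. Pooled, they had 7204 CPM of Cd74, the class II invariant chain, against 3.15 in the remaining late cells, and 3894 against 0.931 CPM of H2-Aa. Genes of dendritic cells were high in them: Batf3, a transcription factor of conventional dendritic cells, at 226.8 against 0.859 CPM, Zbtb46 at 117.6 against 2.43, Flt3, a cytokine receptor of dendritic progenitors, at 218.4 against 12.9, and Ciita, the master regulator of class II genes, at 193.2 against 0.215. Xcr1 had no UMI in either set.

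In the same cells several monocyte genes were low. They had 130.2 CPM of Ly6c2 against 2898, 4.20 of Csf1r, the M-CSF receptor, against 109.8, 75.6 of F13a1 against 1320, and no UMI of Trem2, Fcgr3 or Mgst1. They passed the monocyte gate through Ms4a6c (1164 against 995.0 CPM), Klf4 (315.1 against 258.3) and Ly86 (289.9 against 250.1). Lgals3 was at 831.8 against 428.7 CPM, Lyz2 at 226.8 against 1501 and Ccr2 at 588.1 against 330.8. Their median depth was 3780 UMIs, against 11625.5. They are called class II cells here, and the values chose them.

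Most of these cells came from batch 2. The sham replicates held 0 and 6 of them in batch 1 and 9 and 15 in batch 2, and the surgery replicates 2 and 3 in batch 1 and 10 and 14 in batch 2. Batch 2 surgery replicate 1 had the highest share, 16.1% of its 62 late cells, and batch 1 sham replicate 1 had 0 of 73 cells, which allows a share of up to 4.11%. They were then taken out of the late cells only, with the early cells left whole. The genes higher or lower than in early cells in 8 of 8 replicates then numbered 958 and 834 in place of 982 and 847. The 12 highest and 12 lowest ratios each moved by at most 0.21. Cd74 went from a ratio of 1.92 ± 1.47 with all late cells to -1.32 without these. Its fall was fixed in advance, since Cd74 helped choose the cells removed, and nothing is read from it.

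Markers of other cell types were summed in each replicate. The dendritic sum (11 genes) ran from 25.9 to 1402 CPM in late cells against 52.6 to 171.1 in early cells, and the lymphoid sum (12 genes) from 261.0 to 498.3 against 288.8 to 373.5. The summed markers of erythroid cells (10 genes) lay between 69.5 and 109.5 CPM, those of megakaryocytes (9 genes) between 10.5 and 40.2, and those of macrophages (11 genes) between 18.9 and 32.7. Neutrophil markers (16 genes, with Elane, Prtn3, Mpo and Ctsg highest) lay between 10704 and 12959 CPM, against 15050 to 17241 in early cells. Only 8 of the 16 lie outside the rule, which limits the rest in late and early cells alike. The epithelial markers (7 genes, a check for tumour cells) reached at most 20.01 CPM in any replicate and all 7 were under 5 CPM on average.

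Ligation of the femoral artery was followed by few detected changes in the RNA of late cells: 2 genes rose and none fell. Thbs1, thrombospondin 1, a secreted matrix protein that can release active TGF-beta, had 1.87 ± 2.12 CPM in sham and 15.2 ± 7.46 CPM in surgery replicates (SD, n = 4). Fgd4, frabin, an exchange factor that activates Cdc42 at the actin cytoskeleton, had 99.6 ± 21.9 and 152.0 ± 14.1 CPM. These 2 calls are 0.0203% of 9843 genes tested by edgeR's quasi-likelihood test with batch as a term and an adjusted p under 0.05, and 354 genes had an unadjusted p under 0.05. The median log2 fold change of all tested genes was 0.00.

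Thbs1 (GRCm38, chr2, 118111876 to 118127133, plus strand, whole gene) had 4.85 and 1.78 CPM in the sham replicates of batch 1 and 0 and 0.853 in those of batch 2. The surgery replicates had 25.9 and 13.8 CPM in batch 1 and 12.3 and 8.75 in batch 2. The groups did not overlap, which held for 2.12% of the 9843 genes in either direction. Its log2 fold change was 3.38 ± 0.44 (SE, edgeR, adjusted p = 0.000258), with 2.96 within batch 1 and 4.28 within batch 2. The counts behind it are small, 10 UMIs in 668 sham cells and 88 UMIs in 549 surgery cells, and 0 UMIs in batch 2 sham replicate 1 allows up to 1.35 CPM. Thbs1 passed the filter on low counts only through its surgery replicates, as all sham values lay below the filter's limit. Its entry into the test thus depended on the group in which it was high. Without batch 1 sham replicate 2 the fold change was 3.32 with an adjusted p of 0.0533. Over the 17 alternatives that tested Thbs1 the adjusted p ran from 6.60e-13 to 0.0533.

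Fgd4 (GRCm38, chr16, 16416917 to 16600549, minus strand, whole gene) had 124.5 and 110.4 CPM in the sham replicates of batch 1 and 87.1 and 76.3 in those of batch 2. The surgery replicates had 158.0 and 168.9 CPM in batch 1 and 143.7 and 137.5 in batch 2. All surgery values lay above all sham values, and batch 1 was higher than batch 2 in both groups. Its log2 fold change was 0.64 ± 0.09 (SE, edgeR, adjusted p = 0.000545), with 0.50 within batch 1 and 0.78 within batch 2. With a score of at least 10 the fold change was 0.63 and the adjusted p 0.197; over all alternatives the adjusted p ran from 3.30e-07 to 0.197.

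Both genes also rose in early cells of the surgery replicates. There Thbs1 had a log2 fold change of 3.46 ± 0.35 (SE, edgeR, adjusted p = 0.000410) and Fgd4 of 0.57 ± 0.07 (adjusted p = 0.00273). The levels differed, with Thbs1 in early cells between 0.260 and 0.895 CPM in sham and between 3.75 and 7.29 CPM in surgery replicates. The granulocyte gate had more of it than the late cells in 7 of the 8 replicates, between 1.35 and 16.2 CPM in sham and between 19.2 and 41.7 in surgery replicates. Fgd4 in that gate had 47.7 ± 7.39 CPM in sham and 76.8 ± 13.2 in surgery replicates (SD, n = 4). In the cells outside all of these gates Fgd4 had 41.6 ± 9.34 and 61.9 ± 7.90 CPM, and Thbs1 2.91 ± 1.86 and 15.3 ± 4.52 CPM. The higher levels after surgery were thus not particular to monocyte progenitors. They were not tested outside the monocyte gate. Late and early sums were also fitted together, with a term for each replicate. None of 11492 genes was called for a surgery effect that differed between late and early cells (edgeR, 0% called, 455 genes with an unadjusted p under 0.05). The lack of calls does not show that the effects were equal. For Thbs1 that difference was 0.01 ± 0.18 and for Fgd4 0.04 ± 0.09 on the log2 scale (SE).

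**Figure D4:**
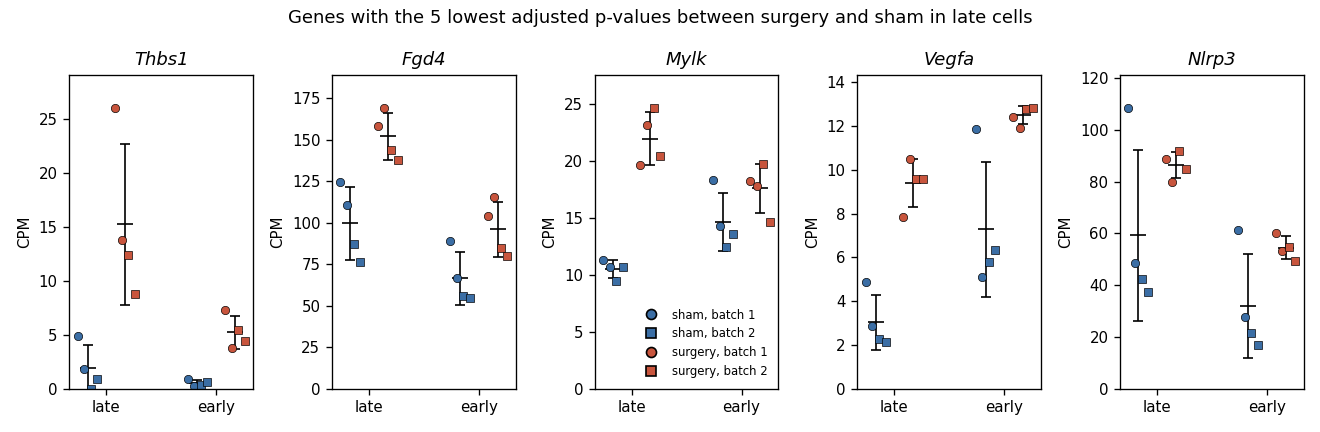
Levels (CPM, linear axes from 0) of the 5 genes with the lowest adjusted p between surgery and sham in late cells, shown for late and early cells, 1 point per replicate, with mean and SD of 4. Surgery values of Thbs1, Fgd4, Mylk and Vegfa in late cells lie above all sham values, and 1 sham replicate of Nlrp3 lies at 108.4 CPM, above all surgery replicates.

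Mylk, Vegfa and Nlrp3 came next and did not pass the test in all late cells; they were chosen after their values were seen. Mylk, myosin light chain kinase, had 11.3, 10.7, 9.48 and 10.7 CPM in the sham replicates and 19.7, 23.2, 24.6 and 20.4 in the surgery replicates, batch 1 first. Its log2 fold change was 1.05 ± 0.20 (SE, edgeR, adjusted p = 0.0534). Vegfa, the growth factor of blood vessels, had 3.02 ± 1.26 CPM in sham and 9.38 ± 1.10 in surgery replicates, from 21 and 59 UMIs, with a log2 fold change of 1.80 ± 0.35 (edgeR, adjusted p = 0.0534). Both had groups that did not overlap. Vegfa, like Thbs1, passed the filter on low counts only through its surgery replicates.

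Nlrp3, the sensor of an inflammasome, had 108.4, 48.6, 42.4 and 37.5 CPM in the sham replicates and 88.8, 80.0, 91.7 and 85.0 in the surgery replicates, batch 1 first. Its log2 fold change was 0.76 ± 0.16 (SE, edgeR, adjusted p = 0.111). Batch 1 sham replicate 1 was the highest of all 8 and alone among the sham replicates above the surgery values. Without it the fold change was 0.97 with an adjusted p of 5.42e-05 (edgeR). Leaving out the value against the direction favours a call, so no support is read from it. Without batch 1 sham replicate 2 the adjusted p was 0.887 (edgeR), and with all replicates in DESeq2 it was 0.9999. Batch 1 sham replicate 1 was also the highest sham replicate for Nlrp3 in early cells, at 61.3 CPM against 16.9 to 27.8 in the other sham replicates, and for Thbs1 and Vegfa in late cells.

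Without the 59 class II cells, 5 genes were called, all higher after surgery. Mylk (1.077, adjusted p = 0.0346), Vegfa (1.81, adjusted p = 0.0425) and Nlrp3 (0.79, adjusted p = 0.0435) passed the edgeR test beside Thbs1 and Fgd4. Over the alternatives that tested each gene the adjusted p ran from 0.00510 to 0.570 for Mylk, from 0.00345 to 0.608 for Vegfa and from 7.21e-07 to 0.9999 for Nlrp3.

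Few listed genes passed the test between surgery and sham. Of all 9843 genes tested 0.0203% were called and 50.1% lay above 0. At that share a list without a call is the usual case, so nothing is read from the list counts. Of the 6 markers of the late cells none was called, but Lgals3, Tgfbi, S100a4 and Klf4 had chosen the cells, so nothing is read from them here. Lyz2 and Trem2, outside the rule, had log2 fold changes of 0.12 ± 0.06 and -0.00 ± 0.11 (SE). Of 20 galectin, annexin and S100 genes none was called (median -0.02), but only 18 of these 20 lie outside the rule. Of 29 lysosome genes none was called, 21 lay above 0 and the median was 0.06, with Psap at 0.26 ± 0.06 (SE, edgeR, adjusted p = 0.142). In the list of classical monocyte genes 1 of 16 was called, and in that of the TGF-beta pathway 1 of 17, in both lists Thbs1. Both lists also hold rule genes, with 16 of 18 and 21 of 22 listed members outside the rule. Of 17 interferon response genes none was called (median -0.11), of 22 hypoxia and glycolysis genes none (median -0.01), and of 17 immediate early genes none (median 0.13).

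No gene of the class II list passed either. Of 13 genes of class II presentation and dendritic cells none was called, beside 0.0203% of all 9843 genes tested. Their median was 0.40 and the highest value 1.007. H2-Ab1 had 3.23, 15.98, 62.3 and 87.4 CPM in the sham replicates and 23.6, 12.7, 292.9 and 95.9 in the surgery replicates, batch 1 first. All 4 replicates of batch 2, where class II cells were most frequent, lay above all of batch 1. Summed over the 4 class II genes, levels without these cells were 4.74 to 5.36 CPM in batch 1 and 12.4 to 17.6 in batch 2. The summed macrophage markers lay between 25.9 and 32.7 CPM in sham and between 18.9 and 24.8 in surgery replicates, with 10 of the 11 genes under 5 CPM. The plasmacytoid sum (8 genes, 5 of them under 5 CPM and 7 outside the rule) lay between 358.7 and 388.1 CPM in sham replicates. In surgery replicates it lay between 334.3 and 345.0, so neither of these sums overlapped between the groups. All other marker sums overlapped, and 2.12% of the 9843 single genes did not overlap in either direction. No difference between the groups is read from these sums. The dendritic sum lay between 25.9 and 458.9 CPM in sham and between 76.7 and 1402 in surgery replicates, and the lymphoid sum between 282.3 and 306.6 and between 261.0 and 498.3. The part of these marker sums in the results above was not tested.

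No difference in the share of late cells passed the test. Late cells made up 3.04, 4.40, 4.598 and 5.25% of all cells in the sham replicates and 3.99, 5.41, 3.29 and 5.18% in the surgery replicates, batch 1 first. The means were 4.32 ± 0.93% and 4.47 ± 1.002% (SD, n = 4, two-sided exact permutation test over 70 splits, p = 0.886, adjusted over 5 share tests 0.886). Of the cells in the monocyte gate, late cells made up 19.2 ± 2.18% and 19.7 ± 2.80% (exact permutation p = 0.743, adjusted 0.886). The difference was 0.98 points of all cells within batch 1 and -0.69 within batch 2. Without the class II cells the surgery difference was 0.0264 points of all cells in place of 0.147, and 0.203 points of the monocyte gate in place of 0.557. The 70 splits do not keep the batches apart. Over the 36 splits within batches, the exact permutation p was 0.944 for all cells and 0.778 for the monocyte gate (both adjusted 0.944). The smallest p that the 70 splits allow is 0.0286 before adjustment, so a single share could not have passed a threshold of 0.05 after adjustment over 5 tests.

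The shares of cells with cycling genes did not pass the test either. After thinning, 86.8 ± 2.32% of late cells in sham and 83.9 ± 2.15% in surgery replicates had at least 3 S phase genes (exact permutation p = 0.143, adjusted 0.357). The difference of -2.89 points was -0.970 without the class II cells and -0.0602 without thinning. The shares for G2 and M genes were 70.05 ± 3.73% and 67.6 ± 5.70% (exact permutation p = 0.514, adjusted 0.857), with 1.54 points within batch 1 and -6.47 within batch 2. Without the class II cells the difference was -3.46 points. Cells with a score of at least 20 made up 5.48, 7.34, 7.74 and 7.14% of late cells in the sham replicates and 2.54, 5.38, 4.84 and 6.56% in the surgery replicates, batch 1 first. The means were 6.92 ± 0.99% and 4.83 ± 1.68%, and the difference was -2.45 points within batch 1 and -1.74 within batch 2, and -2.35 overall without the class II cells. The score is the value that chose the cells, so this share is a description and no test is read from it. Its exact permutation p of 0.0571 stayed among the 5 tests of the adjustment, so the other shares' adjusted p-values depend on it.

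**Figure D5:**
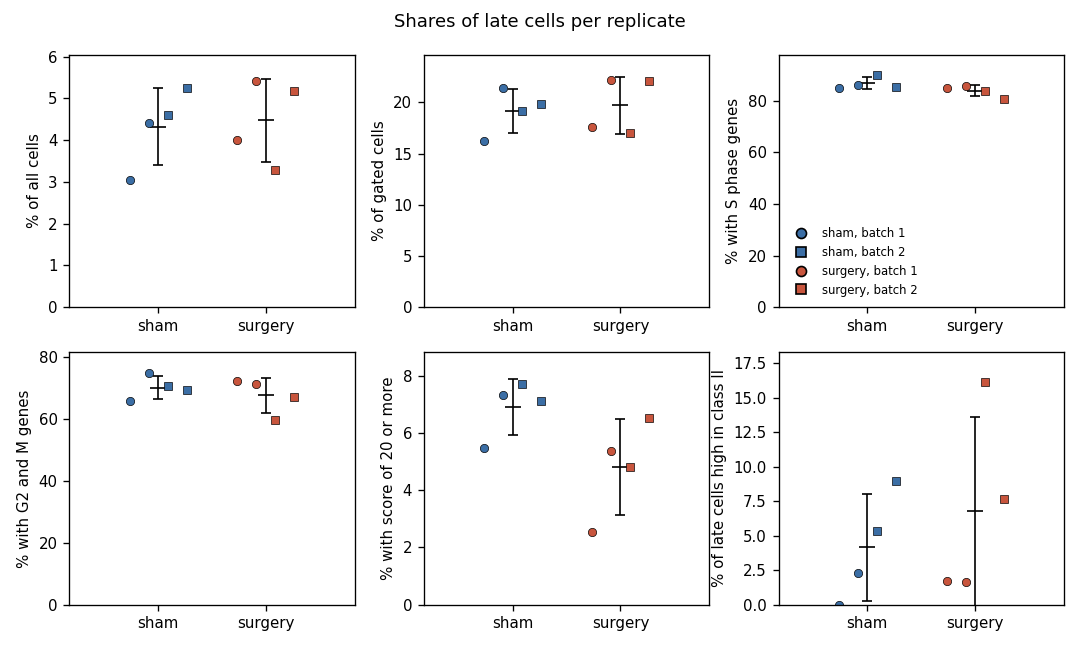
6 shares per replicate (y axes in percent, from 0): late cells among all cells and in the monocyte gate, late cells with at least 3 S phase or G2 and M genes after thinning, late cells with a score of at least 20, and class II cells among late cells, with mean and SD of 4 replicates per group. Sham and surgery overlap in all panels, and the class II share reaches 16.1% in 1 surgery replicate of batch 2.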

How the data were processed

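Single-cell RNA counts and hashtag counts of 2 PIPseq libraries were used. The files deposited by the authors give raw UMI counts, whole and unscaled, for each barcode; Cell Ranger and GRCm38 are named in the submitters' processing notes, and the version, strand setting and treatment of multiply mapped reads are not given in the sources used here. Replicates were taken from hashtag names, since the libraries' treatment labels contradict them.

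Barcodes with at least 1000 gene UMIs, at most 10% mitochondrial UMIs and exactly 1 hashtag with at least 200 counts were kept (batch 1: 14678 from 18094; batch 2: 12265 from 14179). Hashtags, 22.2% and 16.1% of counts, were left out of library sizes. Scrublet (scanpy 1.11.5) called 1.02% and 0.825% of cells, 15.4% and 18.6% of those with several hashtags, and doublets were kept in the main analysis. Counts were summed per replicate and tested in edgeR 4.0.16 (R 4.3.3) with filterByExpr, TMM and batch; late by surgery interactions had a term for each replicate. Shares were compared by exact permutation. The code was tested on simulated data. Alternatives covered scaling, DESeq2 1.42.0, filters, gates and left-out replicates.

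Named genes were the 12 highest and 12 lowest called fold changes with at least 20 CPM and the same sign in both batches, up to 4 most abundant members of each list and called members, the 6 markers, and, for late against early cells and for score bins, the 12 highest and lowest ratios among genes with at least 50 CPM and 1 direction in 8 of 8 replicates. The members and lists were chosen with earlier results of these data known. Gene positions are from GENCODE vM21 and promoters from RefSeq, both on GRCm38. Genes that met this rule but are withheld are not reported here.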

Additional observations from a re-analysis of the deposited data

Results flagged for a closer look

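Nlrp3 in late cells of the sham replicates was flagged because 1 sample lay far from the others: batch 1 sham replicate 1 had 108.4 CPM and the next highest 48.6, a gap of 0.843 of the group's range and past Dixon's limit for 4 samples. Klf4 in the surgery replicates was flagged on the low side, with 256.3 CPM in batch 1 surgery replicate 1 against 288.8 to 293.9 in the others, a gap of 0.866 of the range. These were 2 of 46 groups of 4 that were checked, and chance flags about 1 group in 20.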

How the results depend on the processing

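The 2 genes called between surgery and sham became 27 (21 higher, 6 lower) with no filter on low counts, 1 with no batch term, 0 with members thinned to 2000 UMIs (205 genes at an unadjusted p under 0.05), 0 with a score of at least 10 (297 genes), 5 with at least 10 monocyte gene UMIs and 5 without class II cells. Leaving out 1 replicate gave 1 to 5 calls, with 1 (Fgd4) without batch 1 sham replicate 2 and 5 (Thbs1, Fgd4, H2-Ab1, H2ac23, H2ac24) without batch 2 surgery replicate 2. RLE factors, DESeq2, at least 3000 UMIs and Scrublet doublets left out gave 2. Thbs1 and Fgd4 kept their direction under every alternative that tested them. With members thinned to 2000 UMIs and with a score of at least 10, the filter on low counts left out Thbs1, Mylk and Vegfa. The 0 calls there are therefore no test of these genes. The genes called for a surgery effect that differed between late and early cells numbered 0 under all alternatives but one. Without batch 1 surgery replicate 2 there were 4, all histone genes (H2ac23, H2ac24, H2ac7 and H2ac4), so leaving out 1 replicate gave 0 to 4.

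The surgery difference in the share of all cells, 0.147 points, ranged from -0.280 to 0.540 when 1 replicate was left out and was -0.00556 with a score of at least 10. That in the share of the monocyte gate, 0.557 points, ranged from -0.432 to 1.45. The G2 and M difference, -2.47 points, was 2.58 without thinning and ranged from -4.00 to 0.169 when 1 replicate was left out. The S phase difference, -2.89 points, ranged from -3.47 to -1.75 when 1 replicate was left out (-1.75 without batch 2 sham replicate 1, -1.88 without batch 2 surgery replicate 2), and was -4.49 when thinned to 1000 UMIs, -1.37 with a score of at least 10, -0.970 without class II cells and -0.0602 without thinning. The difference in the share with a score of at least 20, -2.10 points, ranged from -2.67 to -1.33 (-1.33 without batch 1 surgery replicate 1) and was -4.79 among cells with a score of at least 10. The cause of these changes was not tested.

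With the replicate number as a block, the count of calls was 2 as well, Thbs1 at 3.23 and Fgd4 at 0.65. The numbers share no stated pairing: deviations of same-numbered sham and surgery replicates correlated at 0.01 in batch 1 and -0.01 in batch 2. Depth limits low genes: in the smallest sum, 618349 UMIs, the 4.85 CPM of Thbs1 were 3 UMIs. Counting intervals and limits cover counting error only.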
